A study of Sus scrofa with 2 samples.

Results

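The CpG cytosines of the mitochondrial genome were described in the longissimus dorsi, a muscle of the back, of 2 female Tibetan pigs. They were taken as every line on the sequence named MT in the lists of methylated cytosines of both libraries, and each position and strand counted as 1 cytosine. The lists together held 250 such cytosines, of 13544369 cytosines in all. Of the 250, the high-altitude list held 93 and the low-altitude list 200, with 43 in both, 50 in the high-altitude list alone and 157 in the low-altitude list alone. On chromosomes 1 to 18 and X, the lists together held 13059144 cytosines. Of these, 10073718 were in the high-altitude list and 9749296 in the low-altitude list, so the larger nuclear list was that of the high-altitude library.

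The high-altitude pig was free-ranging in the Tibetan highland at about 4000 m. The low-altitude pig descended from Tibetan pigs raised for several generations in the lowland, and it was kept experimentally with ordinary feed at about 500 m, on the plain of Chengdu. By its title, the series asks how such pigs acclimate to the lowland. Each group was 1 pig with 1 library, so altitude, feeding, housing, descent, the individual and the library cannot be told apart, and no value has a replicate error. Tests between the groups therefore compare 2 libraries, and tests between strands compare reads within a library. The lists hold no expression values, and the tissue label was not checked against markers.

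The mitochondrial genome is a small circular DNA that is present in many copies per cell, with high copy numbers in muscle. It encodes subunits of the respiratory chain, ribosomal RNAs and transfer RNAs, and it is replicated and transcribed apart from the nuclear chromosomes. CpG methylation is well established in nuclear DNA, whereas its extent in mitochondrial DNA is debated. Bisulfite turns unmethylated cytosine into a base that is read as thymine, so a read that still shows cytosine is counted as methylated. The sources used here name no genome build, so positions are those of the lists, no gene was assigned to them, and no sequence is shown.

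Mitochondrial cytosines were read deeply and were listed at very low levels. The median depth of a listed mitochondrial cytosine was 1926 reads in the high-altitude library (range 635 to 5380) and 1159.5 reads in the low-altitude library (range 28 to 3872). Over reads, 0.220% were methylated in the high-altitude library (429 of 195201 reads, 95% Wilson interval 0.200 to 0.242), against 0.508% in the low-altitude one (1364 of 268287 reads, 0.482 to 0.536). The median site level was 0.223% and 0.300%, respectively. No listed cytosine of the high-altitude library reached 1%, against 19 of 200 in the low-altitude library. Intervals take reads as independent and cover counting error at most, since the sources used here do not say how duplicate reads were treated.

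A cytosine entered a list only when its methylated reads exceeded those expected from incomplete conversion, so the levels above leave out every CpG below that limit. The non-conversion rate behind the deposited levels was 0.0292% at high and 0.0277% at low altitude. With these rates, a cytosine at the median mitochondrial depth was listed from 3 methylated reads at high altitude (0.156%) and from 2 at low altitude (0.173%). Of the listed cytosines, 35 of 93 in the high-altitude library (37.6%) and 81 of 200 in the low-altitude library (40.5%) held exactly the smallest number of methylated reads that listing takes at their depth. A large share of the mitochondrial lists thus lay at the limit of detection. The level over all mitochondrial CpGs cannot be computed from lists of this kind.

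**Figure D1:**
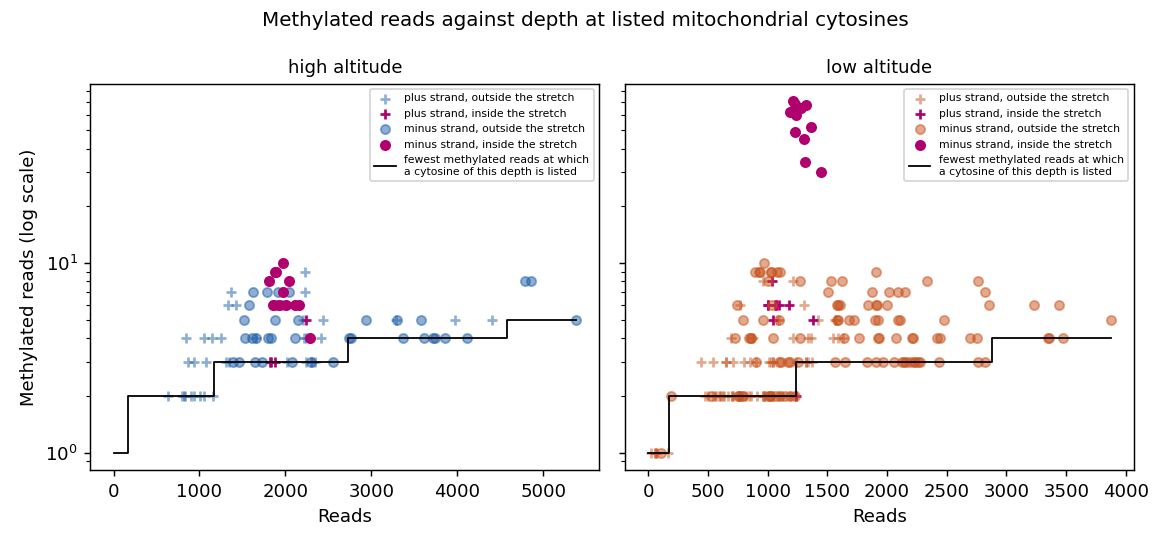
Methylated reads (log scale) against all reads at each listed mitochondrial cytosine, with the high-altitude library on the left and the low-altitude library on the right; the black line gives the fewest methylated reads at which a cytosine of that depth is listed. Many points lie on the line, and the 11 minus-strand points of the low-altitude library between 3.526 and 3.736 kb lie far above it, at 30 to 71 methylated reads.

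Nuclear cytosines listed on chromosomes 1 to 18 and X had a median depth of 8 reads and a median level of 80% in each library. The median mitochondrial depth was 241 times the nuclear median in the high-altitude library and 145 times in the low-altitude library. At cytosines listed in both files, the low-altitude library had 0.614 times as many mitochondrial reads as the high-altitude library, against 0.975 times for nuclear reads. At listed cytosines, more copies of mitochondrial DNA and a different recovery of it cannot be told apart. Among nuclear cytosines with at least 500 reads, the median level was 39.3% in the high-altitude library (881 cytosines, 25 of them under 1%) and 41.1% in the low-altitude library (925 cytosines, 19 under 1%). Of the mitochondrial cytosines with at least 500 reads, 93 of 93 at high altitude and 176 of 189 at low altitude were under 1%. Deep cytosines can be listed at lower levels, so these counts describe the lists.

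Both strands were listed, the minus strand more often. In the high-altitude library 43 plus-strand and 50 minus-strand cytosines were listed, and in the low-altitude library 86 and 114. In the high-altitude library the strands had nearly the same level over reads, 0.219% on the plus strand (95% Wilson interval 0.188 to 0.256) and 0.220% on the minus strand (0.195 to 0.248). In the low-altitude library the level was 0.348% on the plus strand (0.309 to 0.391) and 0.575% on the minus strand (0.542 to 0.610). Outside a stretch of 211 bp that runs from 3.526 to 3.736 kb, and that is described next, the order of the strands in the low-altitude library turned, with 0.318% on the plus strand (0.278 to 0.364) and 0.277% on the minus strand (0.253 to 0.302). The plus strand was shallower there, with a median of 912 reads against 1650, so listing took a higher level on it, and 60% of its cytosines against 34.0% of the minus-strand ones held the smallest listed count. Over the cytosines outside the stretch that were listed in both files, the low-altitude level was 0.329% on the plus strand (13 cytosines) and 0.425% on the minus strand (15 cytosines).

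The highest plus-strand levels of the high-altitude library were 0.511% at position 1772 (7 of 1370 reads), 0.473% at 4050 (4 of 845 reads) and 0.450% at 1821 (6 of 1334 reads). Its highest minus-strand levels were 0.507% at 3657 (10 of 1971 reads), 0.479% at 3689 (9 of 1880 reads) and 0.477% at 3671 (9 of 1885 reads). These 3 minus-strand cytosines all lay in the stretch, and the 3 plus-strand ones lay outside it. In the low-altitude library the highest plus-strand levels rested on single reads, with 3.57% at 6297 (1 of 28 reads) and 1.82% at 6354 and at 6357 (1 of 55 reads each). Its highest minus-strand levels were 5.86% at 3599 (71 of 1212 reads), 5.61% at 3593 (69 of 1229 reads) and 5.20% at 3632 (62 of 1192 reads), again all in the stretch.

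**Figure D2:**
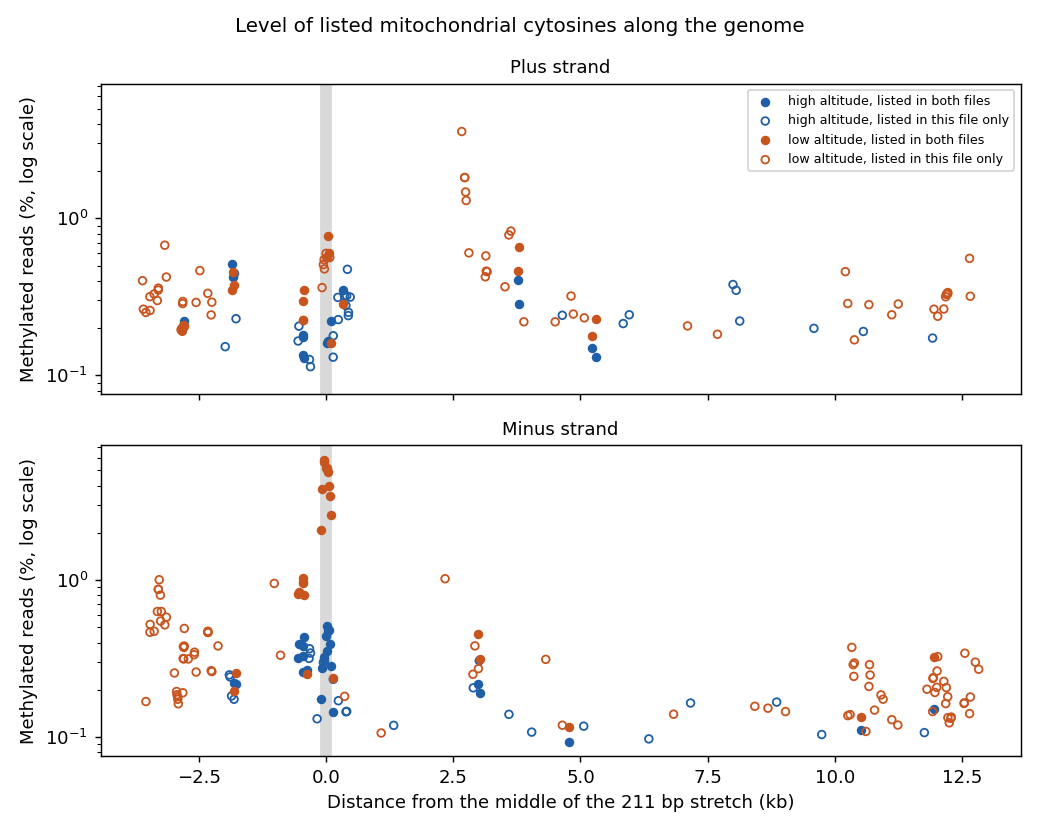
Share of methylated reads (log scale) at each listed mitochondrial cytosine against its distance from the middle of the stretch from 3.526 to 3.736 kb (grey band), on the plus strand above and the minus strand below. Filled points were listed in both files and open points in the file of that colour alone; the low-altitude library reaches 5.86% on the minus strand in the band.

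In this stretch, the minus strand was methylated in more reads of the low-altitude library than of the high-altitude library at each of the 11 cytosines listed in both. Over these 11, 0.361% of the high-altitude reads were methylated (79 of 21902 reads, 95% Wilson interval 0.290 to 0.449), against 4.28% of the low-altitude reads (605 of 14136 reads, 3.96 to 4.63). The difference of 3.92 points (95% Newcombe interval 3.59 to 4.27) corresponds to a level 11.9 times as high. The bounds of this stretch were set with earlier results of these data known, so its contrast with the rest of the genome is a description and was not tested.

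Cytosine by cytosine, two-sided Fisher's exact tests were run on 43 mitochondrial cytosines with at least 10 reads in each library, with Benjamini-Hochberg adjustment over all 2231991 cytosines tested in the genome. Of the 43, 11 (25.6%) were called at an adjusted p below 0.05, against 0.235% of all cytosines tested. All 11 calls were higher at low altitude, a direction taken by 0.109% of all cytosines tested, and they were the 11 minus-strand cytosines of the stretch in both lists. The first and the last of them are the bounds of the stretch, which were set with earlier results known. That the calls lay inside it is therefore no separate result. The tested mitochondrial cytosines were far deeper than most. Of 714 nuclear cytosines that both libraries covered with at least 500 reads, 26.2% were called, 9.94% in the direction of higher levels at low altitude. The called share of the mitochondrial cytosines was thus close to that of deep nuclear cytosines in either direction, and above it in the direction of higher levels at low altitude, which all 11 calls took; this difference in shares was not tested.

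In the low-altitude library the levels of the 11 called cytosines formed a crest, higher toward the middle of the stretch than at its edges. The first cytosine of the stretch had 4 methylated of 2286 high-altitude reads (0.175%) and 30 of 1445 low-altitude reads (2.08%), with an adjusted p of the exact test of 2.84e-05. Position 3553 had 6 of 2163 (0.277%) and 52 of 1367 (3.80%), with an adjusted p of the exact test of 3.11e-11. Position 3593 had 6 of 1926 (0.312%) and 69 of 1229 (5.61%), with an adjusted p of the exact test of 4.30e-17. The low-altitude level thus more than doubled over these 3 cytosines, while the high-altitude level reached 0.312%.

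At the top of the crest, position 3599 had 6 of 1857 reads (0.323%) and 71 of 1212 (5.86%), the smallest adjusted p of the mitochondrial cytosines at 1.97e-17 by the exact test. Position 3632 had 8 of 1804 (0.443%) and 62 of 1192 (5.20%), and position 3646 had 7 of 1977 (0.354%) and 65 of 1283 (5.07%). Position 3657 had 10 of 1971 (0.507%) and 68 of 1318 (5.16%). These 4 cytosines differed between the libraries by 4.65 to 5.53 points, with adjusted p-values of the exact test up to 8.56e-13. The high-altitude library also had its largest minus-strand count here, at 3657.

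Beyond the top the low-altitude level was lower at each further cytosine. Position 3671 had 9 of 1885 reads (0.477%) and 60 of 1238 (4.85%), and position 3689 had 9 of 1880 (0.479%) and 49 of 1233 (3.97%). Position 3704 had 8 of 2037 (0.393%) and 45 of 1305 (3.45%), and the last cytosine of the stretch had 6 of 2116 (0.284%) and 34 of 1314 (2.59%). Adjusted p-values of the exact test ran from 1.56e-11 at 3671 to 1.62e-05 at the last cytosine. Depth over the 11 cytosines ran from 1192 to 1445 reads in the low-altitude library, with the most reads at the first cytosine, where the level was lowest, and the fewest at 3632. The reads of neighbouring cytosines overlap, so these 11 tests are not independent of each other.

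**Figure D3:**
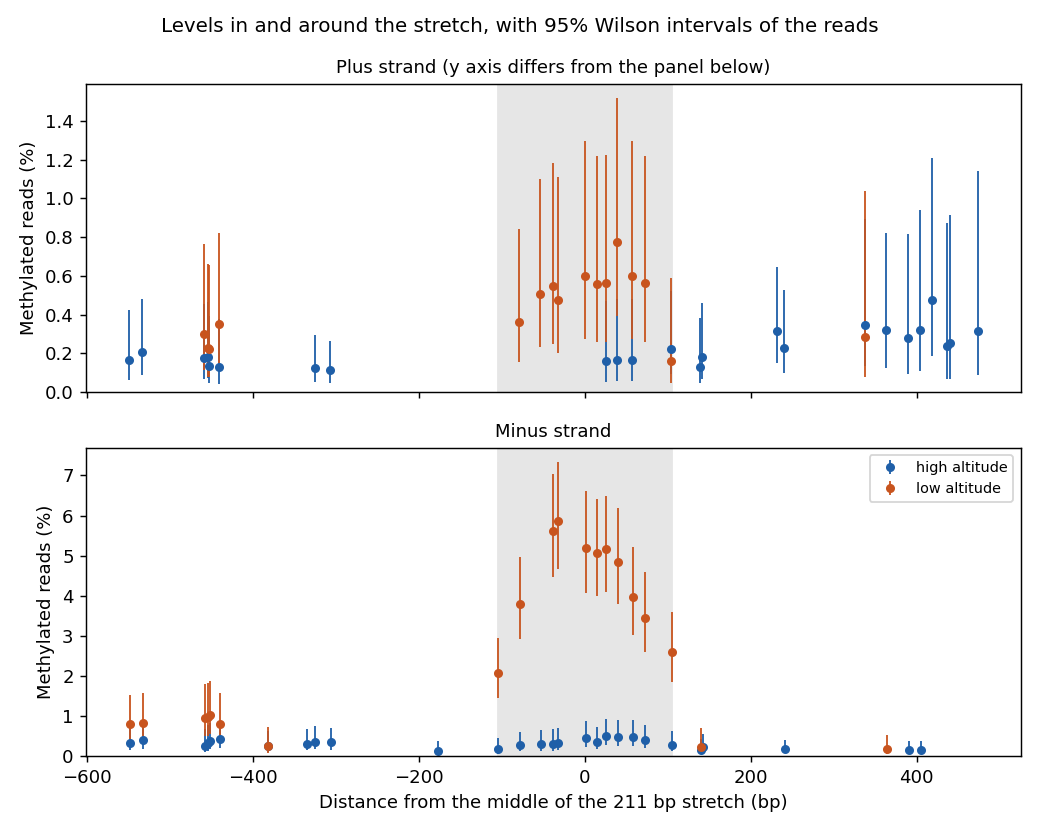
Levels with 95% Wilson intervals of the reads at listed cytosines around the stretch (grey band), on the plus strand above and the minus strand below, against the distance from the middle of the stretch in bp; the vertical axes of the panels differ. On the minus strand the low-altitude library rises from 2.08% at one edge to 5.86% and ends at 2.59% at the other edge, while the high-altitude library stays at or below 0.507%.

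The minus strand of the stretch had 12 listed cytosines, and the twelfth was listed in the high-altitude library alone. It lay at position 3578, with 6 of 2003 reads (0.300%), between neighbours that had 3.80% and 5.61% in the low-altitude library. The plus-strand partner of this CpG, at 3577, was listed in the low-altitude library with 6 of 1183 reads (0.507%). At the median depth of the low-altitude minus strand in the stretch, 1283 reads, 3 methylated reads would have placed the cytosine in the list. Position 3578 was chosen for mention after its values were seen.

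The plus strand of the stretch held far fewer methylated reads than the minus strand in the low-altitude library. All 11 listed plus-strand cytosines of the stretch were in the low-altitude list, with 2 to 8 methylated reads each and a level over reads of 0.509% (62 of 12191 reads, 95% Wilson interval 0.397 to 0.651). Of these, 4 were also in the high-altitude list, and over them 0.180% of high-altitude reads (14 of 7775 reads, 0.107 to 0.302) and 0.507% of low-altitude reads were methylated (22 of 4337 reads, 0.335 to 0.767). At 3656 the levels were 0.160% and 0.564%, at 3670 0.165% and 0.774%, and at 3688 0.164% and 0.598%. At 3735 the order was the other way, with 0.223% and 0.162%. None of the 4 was called, and the smallest adjusted p of Fisher's exact test among all mitochondrial cytosines that were not called was 0.738, at 3670.

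The strands of each CpG were also compared within a library by Fisher's exact test, with adjustment over all CpGs of that library. In the low-altitude library 10 of 47 mitochondrial CpGs with both strands listed were called, against 0.142% of all CpGs tested. All 10 were higher on the minus strand, a direction taken by 0.0902% of all CpGs tested, and they were the 10 tested CpGs of the stretch. Since the bounds of the stretch were set with earlier results of these data known, their place in it is no separate result. The mitochondrial CpGs were far deeper than most CpGs tested, and the share called between strands among deep nuclear CpGs was not computed. The difference was largest at the CpG with plus-strand position 3598, at 0.476% on the plus and 5.86% on the minus strand (exact test, adjusted p = 1.12e-10). It was smallest at that with plus-strand position 3735, at 0.162% and 2.59% (exact test, adjusted p = 4.61e-05).

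In the high-altitude library none of 21 mitochondrial CpGs was called between strands, against 0.0958% of all CpGs tested, and none had an unadjusted p of Fisher's exact test below 0.05. Of the 21, 14 were higher on the minus strand. The 4 CpGs of the stretch were all higher on the minus strand, for example 0.160% on the plus and 0.507% on the minus strand at the CpG with plus-strand position 3656 (exact test, unadjusted p = 0.0930). Outside the stretch, 37 low-altitude CpGs were tested between strands and none was called. Of these 37, 21 were higher on the minus strand and 16 on the plus strand. Whether the strand difference of the stretch differed between the libraries was not tested.

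The stretch made up a small part of the mitochondrial reads and a large part of the methylated ones in the low-altitude library. Its minus strand gave 5.27% of all reads at listed mitochondrial cytosines of that library and 44.4% of the methylated reads. In the high-altitude library the shares were 12.2% of reads and 19.8% of methylated reads. Over all listed cytosines of the high-altitude library, the minus-strand level was 0.356% inside the stretch (95% Wilson interval 0.288 to 0.439) and 0.186% outside it (0.161 to 0.216). The minus-strand level over all listed cytosines was thus higher inside the stretch than outside it in each library, by different amounts. In the high-altitude library, minus-strand groups outside it had 0.340% from 3082 to 3325 (0.265 to 0.438), 0.231% from 6524 to 6658 and 0.214% from 1729 to 1862. Of its minus-strand cytosines outside the stretch, 42.1% held the smallest listed count, against 0% inside.

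Outside the stretch, the cytosines listed in both files had a higher level over reads in the low-altitude library, by far fewer points than inside it. Over 28 such cytosines, 0.231% of high-altitude reads (133 of 57603 reads, 95% Wilson interval 0.195 to 0.274) and 0.385% of low-altitude reads were methylated (135 of 35084 reads, 0.325 to 0.455). The difference was 0.154 points (95% Newcombe interval 0.0806 to 0.233), and 22 of 28 cytosines were higher in the low-altitude library. The depth of these cytosines in the low-altitude library was 0.604 times that in the high-altitude library by median, and a lower depth raises the level that listing takes. The part of this in the difference was not tested. By strand, the difference outside the stretch was 0.208 points on the minus strand (15 cytosines, 0.110 to 0.317) and 0.0782 points on the plus strand (13 cytosines, −0.0294 to 0.199). Of the 28 cytosines, 7 lay on the minus strand from 3082 to 3249. This group alone held 57 of the 135 low-altitude methylated reads, in 7217 of the 35084 reads, and the difference without it was not computed.

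None of these 28 cytosines was called. The smallest unadjusted p of Fisher's exact test among them was 0.0400, at position 3173 on the minus strand, with 4 of 1535 reads (0.261%) and 9 of 941 (0.956%), and its adjusted p was 0.912. Position 3173 belongs to a group of 7 minus-strand cytosines from 3082 to 3249 that were listed in both files. In the low-altitude library this group had 0.790% methylated reads (57 of 7217, 95% Wilson interval 0.610 to 1.02), with 1.03% at 3179. In the high-altitude library the 10 minus-strand cytosines from 3082 to 3325 had 0.340% (60 of 17628 reads, 0.265 to 0.438). The 4 plus-strand cytosines from 3172 to 3190 had 0.277% in the low-altitude library (0.168 to 0.456). This group lay on the side of lower positions. On the other side of the stretch, the next listed minus-strand cytosine, 3771, had 3 of 2080 reads (0.144%) and 3 of 1254 (0.239%). On the plus strand of that side, high-altitude levels from 3770 to 4105 ran from 0.130% at 3770 to 0.473% at 4050.

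In steps of 500 bp, listed cytosines were unevenly spread along the genome. Of 33 steps up to the last listed position, 15 held cytosines of both files, 5 of the high-altitude file alone, 11 of the low-altitude file alone, and 2 held none. Of these, 6 steps had at least 3 listed cytosines in each library. The highest level of the 6 in the low-altitude library was 2.26% from 3501 to 4000, the step that holds the stretch, against 0.277% in the high-altitude library. The step from 7001 to 7500 followed with 0.626% against 0.253%, and that from 3001 to 3500 with 0.570% against 0.227%. These levels are over all listed cytosines of a step, which are partly different in the 2 libraries.

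The other 3 of these 6 steps had lower levels. From 6501 to 7000 the level was 0.231% at high and 0.387% at low altitude, from 1501 to 2000 it was 0.259% and 0.329%, and from 8501 to 9000 it was 0.131% and 0.212%. Over all listed cytosines of a step, the low-altitude library thus had the higher level in all 6 steps. Without the step of the stretch its values ran from 0.212% to 0.626%. In the 3 steps of lower levels the Wilson intervals of the libraries overlapped. From 1501 to 2000 they were 0.1955 to 0.343 at high and 0.203 to 0.533 at low altitude. There, of the cytosines in both lists, those at 1772, 1812 and 1821 were lower at low altitude and those at 1811 and 1862 higher. A lower depth also raises the level that listing takes, and its part in these orders was not tested. The longest interval without a cytosine in either list was 1010 bp, from 4960 to 5970.

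**Figure D4:**
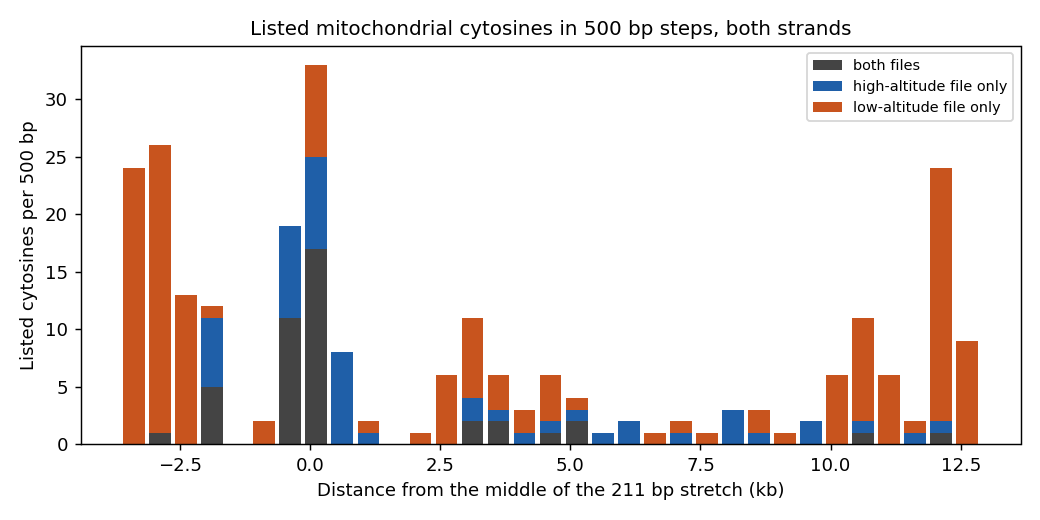
Number of listed mitochondrial cytosines in each 500 bp step, both strands together, against the distance of the step from the middle of the stretch from 3.526 to 3.736 kb in kb; bars are stacked by whether a cytosine was listed in both files or in a single file. The step of the stretch has 17 cytosines in both files, and the steps at both ends of the numbering hold cytosines of the low-altitude file almost alone.

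Cytosines listed in the low-altitude library gathered at both ends of the numbering, which meet in the circular molecule. Positions up to 1500 held 63 of its 200 cytosines and positions from 13501 on held 55. The high-altitude library had 1 of its 93 cytosines in the first part, at position 831 with 3 of 1348 reads (0.223%), and 5 in the last part. The low-altitude level was 0.355% over the first part (256 of 72149 reads, 95% Wilson interval 0.314 to 0.401) and 0.211% over the last part (0.184 to 0.240). These parts were chosen after their values were seen.

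Within the first part, the minus strand carried the higher levels. The 13 minus-strand cytosines from 90 to 492 had 0.595% in the low-altitude library (87 of 14621 reads, 95% Wilson interval 0.483 to 0.733), with 1.01% at 351 (9 of 895 reads) and 0.874% at 333 (9 of 1030 reads). The 9 plus-strand cytosines from 23 to 334 had 0.301% (27 of 8980 reads, 0.207 to 0.437). With those at 460 and 491, the 11 plus-strand cytosines up to position 500 had 0.323%. At 460 the plus strand was the higher one, at 0.674% against 0.519% on the minus strand. It was also the higher one at 89, at 0.252% against 0.168%, and further on at 815, 1076 and 1385. No CpG of the first part was called between strands. None of the 24 cytosines up to position 500 was listed in the high-altitude library, and its depth there was not recorded.

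Further on, 12 plus-strand cytosines from 781 to 841 followed each other at regular distances in the low-altitude list. The first and second were 10 bp apart, and from 791 on the distances were 4 and 6 bp in turn. Each had 2 or 3 methylated reads at 964 to 1048 reads, and their level over reads was 0.215% (26 of 12105 reads, 95% Wilson interval 0.147 to 0.315). Of the 12, 10 held the smallest count that listing takes. Minus-strand cytosines from 816 to 842 also lay 6 and 4 bp apart in turn in this list. Their levels were above those of their plus-strand partners, for example 0.377% at 826 against 0.204% at 825. The exception was 816, with 0.192% against 0.295% at 815. The control region of pig mitochondrial DNA is known to hold a short tandem repeat, and the place of these positions relative to it was not determined here. Position 831 is the single cytosine of this group in both lists.

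Many cytosines of a single list held the smallest count that could be listed. The 50 cytosines listed in the high-altitude library alone had 0.188% methylated reads (203 of 107921 reads, 95% Wilson interval 0.164 to 0.216), and 23 of them (46%) were at that count. The 157 listed in the low-altitude library alone had 0.280% (602 of 214730 reads, 0.259 to 0.304), and 69 of them (43.9%) were at it. Of the 43 cytosines in both lists, 12 in each library were at it. By strand, 26 plus and 24 minus cytosines were listed in the high-altitude library alone, and 69 plus and 88 minus in the low-altitude library alone. Inside the stretch a single cytosine was listed in the high-altitude library alone and 7 in the low-altitude library alone, the latter all on the plus strand with 5 or 6 methylated reads each.

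For part of these cytosines the other list gave a depth nearby. Of the 157 in the low-altitude list alone, 31 had a same-strand cytosine within 100 bp in the high-altitude list. At that neighbour's depth, 21 of the 31 had a level at or above what listing took in the high-altitude library, and 10 had a level below it. Of the 50 in the high-altitude list alone, 27 had such a neighbour in the low-altitude list, and 11 were at or above the level that listing took there. For the other 126 and 23 cytosines no nearby depth was recorded. Absence from a list therefore covers both cytosines that could have been listed at their level and cytosines that could not.

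The lowest depths lay mostly on the plus strand of the low-altitude library, though position 2613 on its minus strand had 105 reads. From 6297 to 6438, 6 plus-strand cytosines had 28 to 166 reads and 1 methylated read each, which gives 1.34% over reads (6 of 449, 95% Wilson interval 0.614 to 2.88). Of the 19 low-altitude cytosines at or above 1%, 5 belong to this shallow group and 11 to the minus strand of the stretch. The other 3 were on the minus strand, at 351 (1.01%), 3179 (1.03%) and 5970 (1.02%, 2 of 196 reads).

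Depth differed between the strands, and the order changed along the genome. Of the 6 steps with at least 3 cytosines in each library, the deepest by median at high altitude were those from 8501 to 9000 (2304 reads), 7001 to 7500 (2232 reads) and 3001 to 3500 (2040 reads). At low altitude they were those from 3501 to 4000 (1229 reads), 8501 to 9000 (1122 reads) and 3001 to 3500 (1107 reads). In the step from 3001 to 3500 the median depth was 2379 reads on the plus and 1870 on the minus strand in the high-altitude library, and 1339.5 and 1002 in the low-altitude library. From 14001 to 14500 it was 1051 and 3607 reads in the high-altitude library, with 1 cytosine on each strand, and 948.5 and 2726 in the low-altitude library. From 15501 to 16000 the low-altitude library had 632 reads on the plus and 2085.5 on the minus strand. At CpGs with both strands listed, the median ratio of minus to plus depth was 0.957 in the high-altitude library (21 CpGs) and 1.57 in the low-altitude library (47 CpGs, 36 of them deeper on the minus strand). These sets hold different CpGs in part, and the low-altitude set includes CpGs at the ends of the numbering, such as that with plus-strand position 14749 at a ratio of 4.70. At CpGs in both sets the ratios were closer, with 0.677 at high and 0.702 at low altitude for plus-strand position 3172, and 1.27 and 1.17 for 1811. In the stretch the low-altitude ratio was the higher one, with 1.05 and 1.24 for 3656, 1.04 and 1.20 for 3670, and 1.03 and 1.23 for 3688. For 3735 the ratios were 0.943 and 1.06, so the deeper strand there was not the same in the libraries.

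The deepest cytosines were all on the minus strand and had low levels. In the high-altitude library they were at 8410 with 5 of 5380 reads (0.0929%), at 10795 with 8 of 4851 reads (0.165%) and at 12487 with 8 of 4786 reads (0.167%). In the low-altitude library they were at 14750 with 5 of 3872 reads (0.129%), at 8410 with 4 of 3473 reads (0.115%) and at 14579 with 6 of 3442 reads (0.174%). Position 8410 was among the 3 deepest in both libraries, and in each it held exactly the smallest count that listing takes at its depth. The deepest cytosines allow the lowest levels to be listed, so their low levels describe the listing as well as the DNA.

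**Figure D5:**
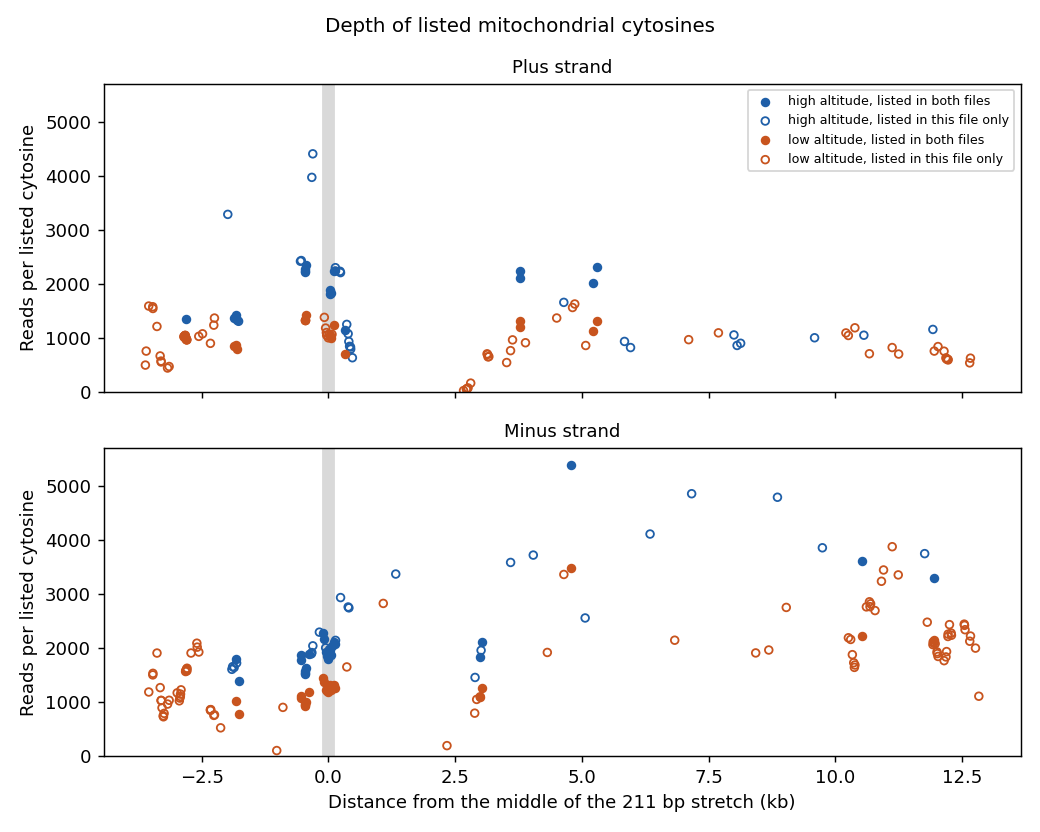
Reads at each listed mitochondrial cytosine against its distance from the middle of the stretch from 3.526 to 3.736 kb (grey band) in kb, on the plus strand above and the minus strand below, with colours and fills by library and list. The minus strand reaches 5380 reads in the high-altitude library, and the plus strand of the low-altitude library drops to 28 reads in one place.

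At the cytosines of both lists, depth followed the same course in both libraries. The ratio of low- to high-altitude depth ran from 0.548 to 0.724 over the 43 cytosines, with a median of 0.613. Inside the stretch the median ratio was 0.649 on the minus strand and 0.558 on the plus strand, against 0.613 and 0.597 outside it. Of the 43, 36 were higher and 7 lower at low altitude. Over all 43, 0.259% of high-altitude reads and 1.42% of low-altitude reads were methylated, a difference of 1.16 points (95% Newcombe interval 1.06 to 1.27) that was 0.154 points without the stretch.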

How the data were processed

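Per the labels' protocols, genomic DNA with a lambda phage spike-in was sequenced after bisulfite treatment. The submitters' processing notes list Bismark 0.12.5. Not given in the sources used here are the genome build, read filters, and the treatment of duplicates and of nuclear copies of mitochondrial sequence. Of 19 nuclear chromosomes, 18 had listed positions past the last gene of the Sscrofa11.1 gene table, which was therefore not used for positions.

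Per the file headers, the deposited lists give methylated and unmethylated read counts per cytosine, a level as a fraction, a p-value and a corrected p-value. From the values, each deposited fraction on MT equals the methylated share less 1 constant rate per library, rescaled, and the deposited p-value is the binomial upper tail with that rate, within 0.1%, in 93 of 93 and 200 of 200 lines. Listed cytosines have at least 5 reads and a corrected p below 0.05. The smallest listed count at each depth was computed from the rate and that limit.

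Levels were computed from the counts, with 95% Wilson intervals, and differences as low minus high altitude with Newcombe intervals. Fisher's exact tests used cytosines with at least 10 reads in each library (or on each strand) across the whole genome, with Benjamini-Hochberg adjustment over all of them, and were tested on simulated data (Python 3.11.15, numpy 2.4.6, scipy 1.17.1). Named cytosines are all those called, the 3 highest per strand and library, the 3 deepest per library, and the 3 highest, lowest and deepest steps with at least 3 cytosines in each library; others are marked or belong to groups of neighbours no more than 100 bp apart that were picked after their values were seen. The members, the bounds of the stretch and the lists were chosen with earlier results of these data known.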

Additional observations from a re-analysis of the deposited data

How the results depend on the processing

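The 11 calls between libraries and the 10 strand calls of the low-altitude library were the same in number with at least 5 or 20 reads. Each mitochondrial cytosine tested between libraries had at least 699 reads, and each one tested between strands at least 445. Neither minimum thus removed any of them. When strands were summed, 11 CpGs were called. Of the 11, the difference changed only at 3657, 3671, 3689 and the last cytosine of the stretch, because only cytosines in both lists were summed. With a difference of at least 25 points required, 0 were called. No other outcome was possible, since the largest difference at a mitochondrial cytosine of both lists was 5.53 points. The difference in level at shared cytosines kept its sign under all alternatives run. For all positions it was 1.16 points, 0.289 with all listed cytosines, 0.154 outside the stretch and 1.35 without the deepest 5%; on the minus strand it was 1.72, and 0.355, 0.208 and 2.21 under these settings. With all listed cytosines it was 2.22 points inside the stretch, against 3.08, and 0.0902 points on the minus strand outside it, against 0.208. Means of site levels, deposited levels and a minimum of 20 reads left every difference within its interval, as did other statistics for the depth ratios and other step sizes within 1.5 times. The minimum of 20 reads could not change these differences, since it removed no mitochondrial cytosine of both lists. No replicate could be left out, since each group has 1 library. No paired analysis was possible because each group has 1 library. Listing took a level of 0.1% at 5000 reads, 0.2% at 1000, 0.4% at 500 and 1% at 100, and lower levels could not be listed at those depths.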
